A study of Mus musculus with 28 samples.

Results

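Expression of 10 genes of the bone morphogenetic protein (BMP) pathway, taken by gene symbol, was followed through 3 bone marrow (BM) populations of wild-type and Flt3-ITD mice, and all 10 were among the 25251 genes listed for each library. They are the ligands Bmp4, Bmp2 and Bmp6, the type I receptors Bmpr1a and Acvrl1, the type II receptor Bmpr2, the co-receptor Eng, the intracellular inhibitor Smad6, the transcriptional target Id1 and the secreted antagonist Grem1. The list was drawn up with the lower RPKM of Bmp4 in Flt3-ITD endothelial cells (ECs) already known, so the members were chosen by measured values. The genotype comparison in endothelial cells is therefore given for these 10 genes as a description without a test, and so are the endothelial levels of Bmp4. The other comparisons were tested over all genes. The remaining pathway genes were represented by a list of 55 in 5 roles, all of them in the table.

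The mice were C57 BL6, 8 to 10 wk old, and carried either normal Flt3 alleles (Flt3+/+, wild type) or an internal tandem duplication (ITD), an activating mutation found in human leukemia, knocked into both copies of Flt3 (Flt3 ITD/ITD). The knock-in is present in every cell of the animal, and the duplicated receptor is made where the Flt3 gene itself is active, which is mainly in hematopoietic progenitors. ECs (CD45-Ter119-CD31+) and mesenchymal stromal cells (MSCs, CD45-Ter119-CD31-CD166-Sca1+) were sorted from bone-lining cells in lots of 100, and BM mononuclear cells (MNCs) were taken in lots of 200. There were 5 libraries for each genotype of ECs and of MSCs and 4 for each genotype of MNCs, 28 in all. Each library came from 1 mouse. The labels do not say whether libraries of the same replicate number in different populations came from the same mouse.

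BMPs are secreted dimers of the TGF-beta superfamily that assemble type I and type II serine-threonine kinase receptors. The active complex phosphorylates Smad1, Smad5 and Smad9, which join Smad4 in the nucleus and switch on genes such as those of the Id family. In bone the pathway is best known for osteoblast differentiation, whereas in endothelium ligands of the BMP9 and BMP10 type signal through Acvrl1 (ALK1) with Eng (endoglin) as co-receptor. Antagonists such as gremlin and noggin bind the ligands outside the cell, and Smad6 and Smad7 block the receptors from within.

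The EC libraries held 6377013 to 33880743 counts each, the MSC libraries 10674182 to 33714502 and the MNC libraries 14260910 to 22149240. The identity of the populations was checked on marker lists. The summed RPKM (read count scaled by transcript length and sequencing depth) of 6 endothelial genes was 1467 to 2087 in ECs and at most 28.1 in the other libraries. A list of 8 stromal genes summed to 26130 to 29670 RPKM in MSCs and to 3681 to 6374 in ECs, where Ly6a (Sca1) alone was 3484 to 6136 against 1687 to 3089 in MSCs. Cxcl12 and Lepr overlapped between ECs and MSCs. The other 5 genes were at most 54.6 RPKM in any EC library, with Col1a1 at 318 to 480 RPKM in wild-type MSCs and at most 1.27 in any EC library, and Dcn at 21730 to 24690 RPKM in wild-type MSCs and at most 54.6 in ECs. A list of 8 leukocyte genes summed to 322 RPKM in replicate 2 of the Flt3-ITD ECs against at most 25.2 in the other 9 EC libraries. In MSCs it was 290 in replicate 5 of Flt3-ITD and 148 in replicate 5 of wild type against 6.88 to 36.8 in the other 8, and in MNCs it summed to 15280 to 22600. With 100 or 200 cells per library, less RNA of a gene per cell and fewer cells that make it cannot be told apart.

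Bmp4, on mouse chromosome 14 from 46383520 to 46390669 on the minus strand (GRCm38), is the ligand around which the list was built. The 250 bases before its first transcribed base are shown beside those of Smad6, an inhibitor that BMP signaling is known to induce. Those of Eng, a co-receptor that separated ECs from the other populations, are shown as well. They are single examples of a ligand, an inhibitor and a receptor and do not stand for their classes. The sequences are RefSeq's for GRCm38.p6, at chr14:46390670-46390919 (minus strand), chr9:64022060-64022309 (minus strand) and chr2:32646345-32646594 (plus strand), each written 5′ to 3′ along the gene's own strand. Promoters of 7 of the 10 genes were matched. Capitals mark the letters of 3 motifs on either strand, GGCGCC and CAGAC, which Smad proteins are known to bind, and AGGAAG, which holds the core bound by ETS factors.
Bmp4: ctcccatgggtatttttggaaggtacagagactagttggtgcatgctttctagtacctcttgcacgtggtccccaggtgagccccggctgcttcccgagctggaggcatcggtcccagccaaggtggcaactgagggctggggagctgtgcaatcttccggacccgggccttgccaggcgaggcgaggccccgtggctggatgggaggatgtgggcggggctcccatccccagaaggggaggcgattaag
Smad6: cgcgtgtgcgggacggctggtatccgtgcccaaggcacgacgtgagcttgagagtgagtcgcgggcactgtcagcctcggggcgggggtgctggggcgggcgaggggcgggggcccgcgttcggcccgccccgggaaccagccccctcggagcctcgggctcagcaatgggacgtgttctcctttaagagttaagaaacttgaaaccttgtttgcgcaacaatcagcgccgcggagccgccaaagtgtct
Eng: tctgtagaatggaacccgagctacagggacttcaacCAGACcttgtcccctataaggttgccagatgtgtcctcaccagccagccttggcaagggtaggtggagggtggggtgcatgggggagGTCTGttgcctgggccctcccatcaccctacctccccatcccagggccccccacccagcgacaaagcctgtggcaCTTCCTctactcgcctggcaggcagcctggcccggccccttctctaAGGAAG
The Eng window held 2 matches to CAGAC and 2 to AGGAAG, and the windows of Bmp4 and Smad6 held no match to the 3 motifs. Of the matched windows not shown, that of Bmp6 held 1 CAGAC and that of Bmpr1a 1 GGCGCC. The window of Bmpr2 held 1 GGCGCC and 1 AGGAAG, and that of Grem1 held 1 GGCGCC and 1 CAGAC. Among 32851 promoter windows of the same length, 9.59% held GGCGCC, 42.2% CAGAC and 29.5% AGGAAG. The motifs do not overlap in the Eng window. A match describes the letters only.

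In ECs, the RPKM of Bmp4 was 51.8, 70.6, 33.0, 38.9 and 34.7 in the 5 wild-type libraries and 17.1, 12.4, 3.93, 9.48 and 21.5 in the 5 Flt3-ITD libraries. All Flt3-ITD libraries lay below all wild-type libraries, and the mean was 3.55 times higher in wild type. The list was chosen by these values. The log2 fold change was -1.82 with a standard error (SE) of 0.46 (edgeR, no test), and Bmp4 was the only member whose EC libraries did not overlap between genotypes, where 0.542% of the 12351 genes tested lay wholly lower and 0.599% wholly higher. Across all genes, a gene was called differentially expressed when its adjusted p was below 0.1 and the mean RPKM differed by a log2 ratio no smaller than 1 in either direction, and 0.0081% were called in this comparison. Without replicate 2 of the Flt3-ITD ECs, the library with leukocyte transcripts, the log2 ratio of mean RPKM was -1.81, against -1.83 with all 10 libraries. Among the marker lists in wild-type and Flt3-ITD ECs, 5 pericyte and smooth muscle genes summed to 274 to 1010 and 153 to 1179 RPKM, 6 arterial genes to 76.6 to 166 and 83.0 to 206, and 5 sinusoidal genes to 106 to 207 and 93.9 to 173. These ranges overlapped between genotypes. Among the 6 endothelial genes, Cdh5 was 225 to 252 RPKM in wild-type ECs and wholly lower, 165 to 206, in Flt3-ITD ECs. The others overlapped, with Tek at 116 to 162 and 79.8 to 117 and Kdr at 52.1 to 67.8 and 62.8 to 103. Osteoblast genes summed to 5.41 to 52.2 RPKM (median 21.0) and 17.6 to 428 (median 87.8). The part of EC makeup in the values of Bmp4 was not tested.

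Outside ECs, Bmp4 was a gene of MSCs and was nearly absent from MNCs. In MSCs its RPKM was 45.4, 33.5, 20.7, 34 and 66.5 in wild type and 37.1, 57.4, 29.5, 58.4 and 23.7 in Flt3-ITD libraries. The genotypes overlapped throughout, with a log2 fold change of 0.13 (SE 0.36, edgeR adjusted p = 0.999, exact two-sided permutation p = 0.913). In MNCs the RPKM was 0.04 to 0.16 in wild type and 0.13 to 0.18 in Flt3-ITD libraries, which rests on 2 to 7 reads per library. In order of mean RPKM, Bmp4 stood at 45.8 ± 15.7 (SD, n = 5) in wild-type ECs, 41.2 ± 16 in Flt3-ITD MSCs, 40.0 ± 17.2 in wild-type MSCs, 12.9 ± 6.79 in Flt3-ITD ECs, and 0.158 ± 0.0263 and 0.1 ± 0.0497 (n = 4 each) in Flt3-ITD and wild-type MNCs. The first 3 of these levels lay within each other's SD.

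**Figure D1:**
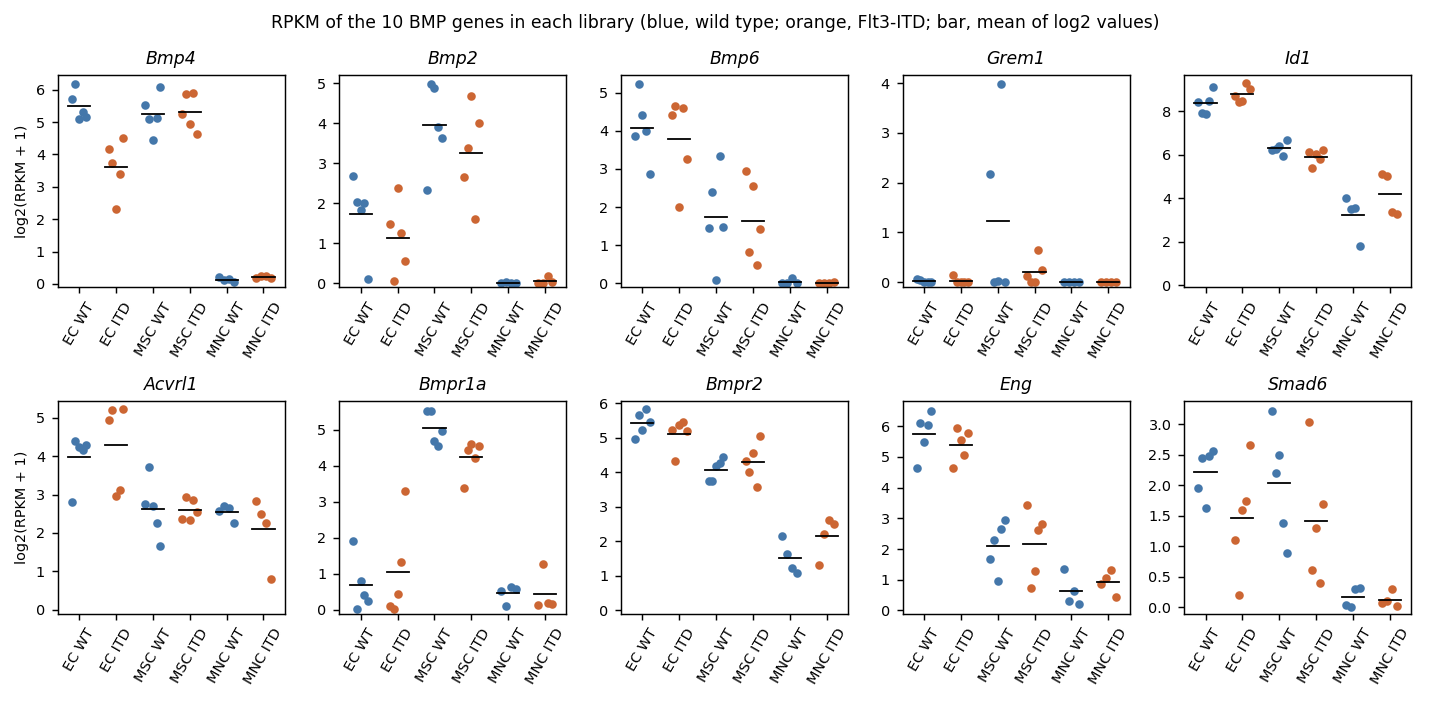
RPKM of the 10 genes in each of the 28 libraries on a log2(RPKM + 1) axis, by population and genotype, with bars at the mean of the log2 values. The orange EC points of Bmp4 lie below the blue ones, from 3.93 to 21.5 RPKM against 33.0 to 70.6, whereas its MSC points overlap.

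Bmp2 (chromosome 2, 133552159 to 133562885, plus strand), a ligand known for bone formation, was a gene of MSCs. Its RPKM was 4.06, 30.3, 28.4, 14 and 11.4 in wild-type and 5.31, 9.46, 24.4, 2.05 and 15.1 in Flt3-ITD MSCs. In ECs it was 5.45, 3.07, 2.54, 3.01 and 0.07 in wild type and 1.78, 0.04, 4.17, 1.37 and 0.46 in Flt3-ITD libraries. The spread within each group was wide, and the genotypes overlapped in both populations. In MSCs the genotype difference was -0.62 on the log2 scale (SE 0.65, edgeR adjusted p = 0.999, exact permutation p = 0.325). Bmp2 was lower in ECs than in MSCs by a log2 fold change of -2.84 in wild type (SE 0.84, adjusted p = 0.0291) and of -3.03 in Flt3-ITD libraries (SE 1.18, adjusted p = 0.0938). The Flt3-ITD call was lost in 8 of 10 fits that left out 1 library. MNC libraries held at most 10 reads of Bmp2.

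Bmp6 (chromosome 13, 38345107 to 38500302, plus strand), a ligand that endothelium is known to release and that controls hepcidin in the liver, had the reverse order. In ECs its RPKM was 13.7, 36.1, 20.4, 15.0 and 6.26 in wild type and 20.5, 23.9, 3.01, 23.0 and 8.49 in Flt3-ITD libraries, and the genotypes overlapped. In MSCs it was 0.07 to 9.09 in wild type (median 1.78) and 0.39 to 6.68 in Flt3-ITD libraries (median 1.7). ECs exceeded MSCs by 2.29 on the log2 scale in wild type (SE 1.08, adjusted p = 0.162), which did not pass the test, and by 2.24 in Flt3-ITD libraries (SE 0.86, adjusted p = 0.0911), which did. The Flt3-ITD call was lost in 7 of the 10 fits that left out 1 library of either population. MNC libraries held at most 4 reads.

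The makeup of BMP ligand RNA was summed over 14 ligands, the 3 members and 11 others. The sum was 47.8 to 115 RPKM in wild-type ECs and 18.7 to 45.5 in Flt3-ITD ECs, ranges that follow Bmp4 itself and are a description. Bmp4 made up 52.5% to 72.6% of the sum in wild-type and 21.1% to 52.3% in Flt3-ITD ECs, while Bmp6 made up 13.1% to 34.1% and 16.1% to 59.6%. In MSCs the sum was 66.5 to 104 RPKM in wild type and 50.0 to 98.2 in Flt3-ITD libraries. Bmp4 held a median share of 39.2% and 47.4% there, Bmp5 one of 17.5% and 16.5%, and Bmp2 one of 14.8% and 10.1%. MNCs had 4.16 to 5.82 RPKM of ligand RNA in all, with median shares of 45.3% and 63.3% for Bmp8b and 45.8% and 23.7% for Gdf3 in wild-type and Flt3-ITD libraries.

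**Figure D2:**
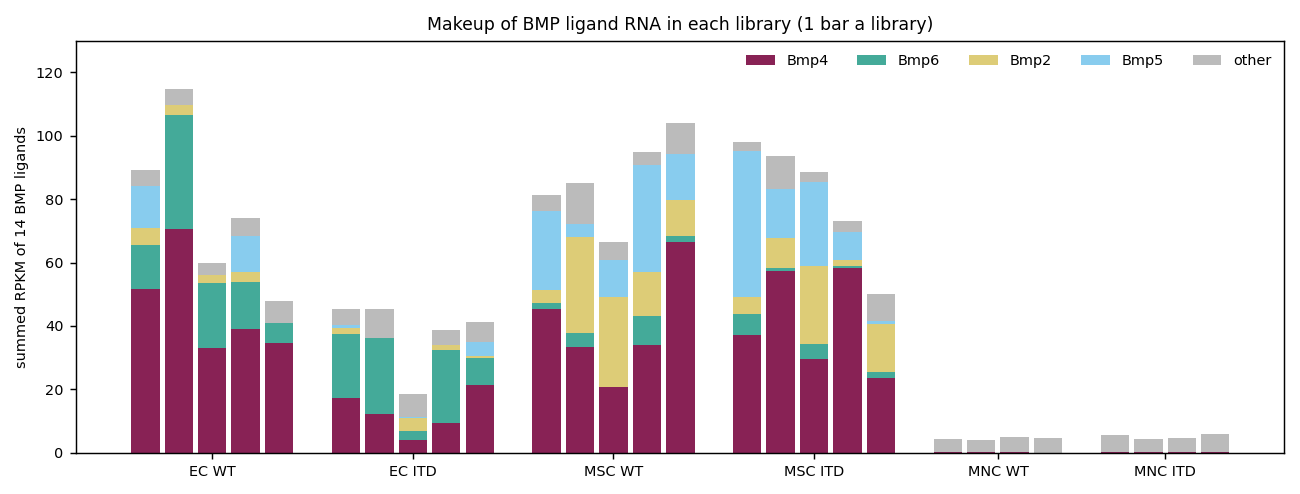
Summed RPKM of 14 BMP ligands in each library, 1 bar a library, divided into Bmp4, Bmp6, Bmp2, Bmp5 and the other 10. Bmp4 is the largest part of every wild-type EC bar, and the MNC bars reach at most 5.82 RPKM.

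Among the members, the type I receptors Bmpr1a and Acvrl1 had opposite orders in ECs and MSCs. Bmpr1a (chromosome 14, 34410734 to 34503341, minus strand), or ALK3, the receptor for BMP2 and BMP4, had an RPKM of 45.1, 45.1, 24.8, 22.4 and 30.4 in wild-type and 9.42, 20.8, 23.1, 17.5 and 22.2 in Flt3-ITD MSCs. In MSCs 4 of the 5 Flt3-ITD libraries lay below every wild-type library. The log2 fold change was -0.88 (SE 0.27), with an exact two-sided permutation p of 0.0159, where 0.00794 is the smallest that 5 against 5 can give. With adjustment over the 13574 genes tested in MSCs, edgeR's quasi-likelihood test gave an adjusted p of 0.999, and the difference did not pass. In the same libraries 5 osteoblast genes summed to 3279 to 9173 RPKM (median 7259) in wild-type and 1210 to 6170 (median 3505) in Flt3-ITD MSCs, and the part of this in the values of Bmpr1a and of the other genes in MSCs was not tested.

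In ECs Bmpr1a was 2.79, 0.01, 0.76, 0.34 and 0.18 RPKM in wild type and 0.08, 0.01, 0.37, 1.52 and 8.81 in Flt3-ITD libraries. The mean of the Flt3-ITD libraries was set by replicate 5, whose summed RPKM of 5 osteoblast genes was 428 against at most 101 in the other EC libraries. The part of those cells in the value was not tested. Bmpr1a was lower in ECs than in MSCs, with a log2 fold change of -5.48 in wild type (SE 1.12, adjusted p = 0.0032) and of -3.68 in Flt3-ITD libraries (SE 1.29, adjusted p = 0.0655). The Flt3-ITD call was lost in 3 of 10 fits that left out 1 library, those without replicate 1, 3 or 4 of the Flt3-ITD ECs.

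Acvrl1 (chromosome 15, 101128522 to 101145336, plus strand), the endothelial type I receptor, was 6.03, 20.1, 18, 16.8 and 18.8 RPKM in wild-type and 29.8, 36.1, 6.82, 7.74 and 36.4 in Flt3-ITD ECs. Of the Flt3-ITD libraries 3 lay above the wild-type range and 2 within it. In MSCs the RPKM was 2.17 to 12.2 in wild type and 4.04 to 6.68 in Flt3-ITD libraries, and in MNCs 3.76 to 5.48 and 0.73 to 6.13. ECs exceeded MSCs by 1.28 in wild type (SE 0.46, adjusted p = 0.0661) and by 1.93 in Flt3-ITD libraries (SE 0.60, adjusted p = 0.0419). The wild-type call was lost in 7 of 10 fits that left out 1 library. MSCs and MNCs did not differ beyond their spread in either genotype (0.29, SE 0.48, adjusted p = 0.7, and 0.69, SE 0.63, adjusted p = 0.48).

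As a share of the RPKM of 4 type I receptors (Acvrl1, Bmpr1a, Acvr1 and Bmpr1b), Acvrl1 had a median of 81.2% in wild-type and 63.8% in Flt3-ITD ECs. Bmpr1a had a median of 63.4% in wild-type and 49.1% in Flt3-ITD MSCs, and 1.64% and 2.39% in ECs. In MNCs Acvrl1 had a median of 88.48% in wild-type and 68.15% in Flt3-ITD libraries, so a large share of Acvrl1 was not particular to ECs. The 4 receptors together reached 4.29 to 6.43 RPKM in wild-type and 2.4 to 7.65 in Flt3-ITD MNCs. Single libraries departed from these medians, since Acvrl1 was 22% to 99.1% across wild-type ECs.

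Bmpr2 (chromosome 1, 59763400 to 59879014, plus strand), the type II receptor that is mutated in familial pulmonary arterial hypertension, was found in all 3 populations. Its RPKM was 30.0, 49.5, 36.6, 56.0 and 43.0 in wild-type ECs and 36.1, 19.2, 40.3, 43.0 and 36.0 in Flt3-ITD ECs. In MSCs it was 12.4, 12.3, 17.2, 18.2 and 20.8 in wild type and 19.2, 15.1, 22.4, 10.9 and 31.9 in Flt3-ITD libraries. The genotypes overlapped in both. ECs were above MSCs in wild type by 1.22 on the log2 scale (SE 0.27, adjusted p = 0.0051), and by 0.60 in Flt3-ITD libraries (SE 0.33, adjusted p = 0.253), which did not pass. In MNCs the RPKM was 3.42, 2.09, 1.34 and 1.12 in wild type and 1.46, 3.65, 5.1 and 4.64 in Flt3-ITD libraries, with 3 of 4 Flt3-ITD values above the wild-type range. That difference was 0.74 (SE 0.40, edgeR adjusted p = 0.53, exact permutation p = 0.114, where 0.0286 is the smallest possible).

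Eng (chromosome 2, 32646595 to 32682669, plus strand), the co-receptor of Acvrl1, was 24.1, 68.0, 44.4, 64.7 and 90.3 RPKM in wild-type and 24.2, 60.4, 45.5, 32.1 and 54.3 in Flt3-ITD ECs, and the Flt3-ITD values lay within the wild-type range. In MSCs it was 0.94 to 6.66 in wild type and 0.65 to 9.88 in Flt3-ITD libraries, and in MNCs 0.15 to 1.55 and 0.34 to 1.52. ECs exceeded MSCs by 3.78 (SE 0.67, adjusted p = 0.0012) in wild type and by 3.02 (SE 0.67, adjusted p = 0.0069) in Flt3-ITD libraries on the log2 scale.

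Id1 (chromosome 2, 152736251 to 152737410, plus strand), an inhibitor of helix-loop-helix factors and a direct BMP target, had the highest RPKM of the 10 genes in every group. It was 346, 242, 232, 360 and 560 RPKM in wild-type and 419, 340, 357, 638 and 526 in Flt3-ITD ECs. The Flt3-ITD mean was 1.31 times that of wild type and the groups overlapped, with 1 Flt3-ITD library above the wild-type range. In MSCs Id1 was 73.5, 76.1, 83.7, 61.1 and 102 RPKM in wild type and 67.9, 41.0, 63.8, 54.8 and 74.0 in Flt3-ITD libraries. That difference was -0.35 on the log2 scale (SE 0.22, edgeR adjusted p = 0.999, exact permutation p = 0.0714) and did not pass. Id1 was higher in ECs than in MSCs by 1.95 in wild type (SE 0.38, adjusted p = 0.0024) and by 2.69 in Flt3-ITD libraries (SE 0.41, adjusted p = 0.00046).

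In MNCs Id1 was 15.3, 10.2, 10.8 and 2.44 RPKM in wild type and 33.5, 31.0, 9.36 and 8.61 in Flt3-ITD libraries. The 2 highest values are replicates 1 and 2 of the Flt3-ITD MNCs. In replicates 1 and 2 of both genotypes a list of 8 immediate-early genes summed to 294 to 475 RPKM, against 19.2 to 32.2 in replicates 3 and 4. The genotype difference of 0.95 (SE 0.61, edgeR adjusted p = 0.61, exact permutation p = 0.286) did not pass. As a log2 ratio of mean RPKM it was 1.34 within replicates 1 and 2 and 0.44 within replicates 3 and 4. The part of the immediate-early difference in the value was not tested.

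Smad6 (chromosome 9, 63953076 to 64022059, minus strand) encodes an inhibitory Smad that blocks BMP receptors. Its RPKM was 2.87, 4.45, 2.09, 4.58 and 4.87 RPKM in wild-type and 1.15, 0.15, 2.03, 2.34 and 5.34 in Flt3-ITD ECs. In ECs 3 Flt3-ITD libraries lay below and 1 above the wild-type range. In MSCs it was 0.86 to 8.32 in wild type and 0.32 to 7.2 in Flt3-ITD libraries, with a difference of -0.69 (SE 0.90, edgeR adjusted p = 0.999, exact permutation p = 0.437). ECs and MSCs did not differ beyond their spread in wild type (-0.20, SE 0.87, adjusted p = 0.911) or in Flt3-ITD libraries (-0.33, SE 0.97, adjusted p = 0.867).

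Grem1 (chromosome 2, 113746164 to 113758646, minus strand), which encodes gremlin, was detected above 3 reads in 3 of the 28 libraries, all of them MSCs. Its RPKM was 3.49 and 14.7 in replicates 1 and 4 of the wild-type MSCs, at most 0.02 in the other 3, and at most 0.56 in Flt3-ITD MSCs (exact permutation p = 0.413). EC libraries held at most 1 read each. MNC libraries held 0 reads, which allows up to 3 reads or 0.135 to 0.21 CPM (counts scaled to depth) by library, for counting error alone. With the filter on low counts Grem1 entered none of the fitted comparisons.

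For the genotype comparisons as a whole, 9 members were fitted in MSCs and 5 in MNCs (Bmpr1a, Bmpr2, Acvrl1, Eng and Id1), and none was called by edgeR's quasi-likelihood test. At an unadjusted p below 0.05 the only one was Bmpr1a in MSCs, and no member was called by DESeq2 in either population. Over all genes, 0.0295% were called in MSCs and 0.0144% in MNCs. The median log2 fold change of the fitted members was -0.18 in MSCs and 0.45 in MNCs, beside 0.03 and -0.01 over all genes tested. No member had genotypes that did not overlap in either population, where 0.56% of genes lay wholly lower and 0.354% wholly higher in Flt3-ITD MSCs, and 0.984% and 5.72% in Flt3-ITD MNCs. The difference of the genotype effect between MSCs and MNCs was called for 0.00592% of 16897 genes and for no member. Among them Id1 had the lowest p, with a difference of -1.30 on the log2 scale (SE 0.58, adjusted p = 0.755).

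**Figure D3:**
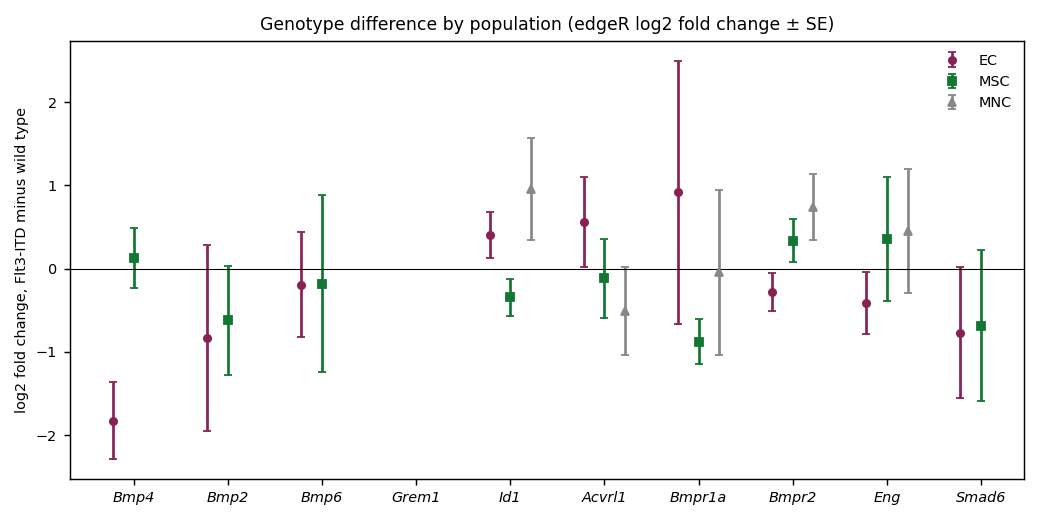
Log2 fold change of Flt3-ITD against wild type (edgeR, bars ± SE) for each gene in ECs, MSCs and MNCs, with genes left blank where the counts were too low to fit. The EC point of Bmp4 at -1.82 stands apart from its MSC point at 0.13. EC points are a description.

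Between populations, Acvrl1, Eng and Id1 were called higher in ECs and Bmp2 and Bmpr1a higher in MSCs in each genotype. In wild-type libraries, of the 8 members fitted apart from Bmp4, 4 were called higher in ECs than in MSCs (Acvrl1, Bmpr2, Eng and Id1) and 2 higher in MSCs (Bmp2 and Bmpr1a), where 11.7% and 12.7% of 15616 genes were called. In Flt3-ITD libraries 4 were called higher in ECs (Acvrl1, Bmp6, Eng and Id1) and 2 higher in MSCs (Bmp2 and Bmpr1a) of the 8 fitted apart from Bmp4, against 11% and 12% of 15651 genes. Bmp4 is left out of this count because its EC levels chose the list. Its log2 fold change of ECs over MSCs was 0.03 (SE 0.35) in wild type and -1.95 (SE 0.44) in Flt3-ITD libraries. In Flt3-ITD libraries the calls of Bmp2, Bmp6 and Bmpr1a were all lost without replicate 1, and also without replicate 4, of the Flt3-ITD ECs.

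Against MNCs, 7 of the 8 fitted members apart from Bmp4 were higher in ECs in each genotype, all but Bmpr1a, where 20.2% of genes were called higher in wild-type and 17.9% in Flt3-ITD ECs. Likewise 8 of 9 were higher in MSCs than in MNCs in each genotype, all but Acvrl1, where 19.7% and 16.5% of genes were called. No member was higher in MNCs. Of all genes, 16.8% and 15.8% were called higher in MNCs than in ECs, and 16.2% and 14.4% higher than in MSCs. Bmp4, Bmp2, Bmp6 and Smad6 were too low for the fit within MNCs and entered these fits through ECs or MSCs. They could hardly be called higher in MNCs, so these counts are a description. Of the members also fitted within MNCs, Bmpr2, Acvrl1, Eng and Id1 were higher in ECs in each genotype. Bmpr1a, Bmpr2, Eng and Id1 were higher in MSCs. In wild type the log2 fold change of ECs over MNCs was 6.44 for Eng (SE 0.85, adjusted p = 6.1e-05), 5.04 for Id1 (SE 0.48, adjusted p = 3.7e-06) and 4.33 for Bmpr2 (SE 0.33, adjusted p = 5.5e-07). No fold is given for Bmp2 and Bmp6, which had at most 10 and 4 reads in an MNC library.

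**Figure D4:**
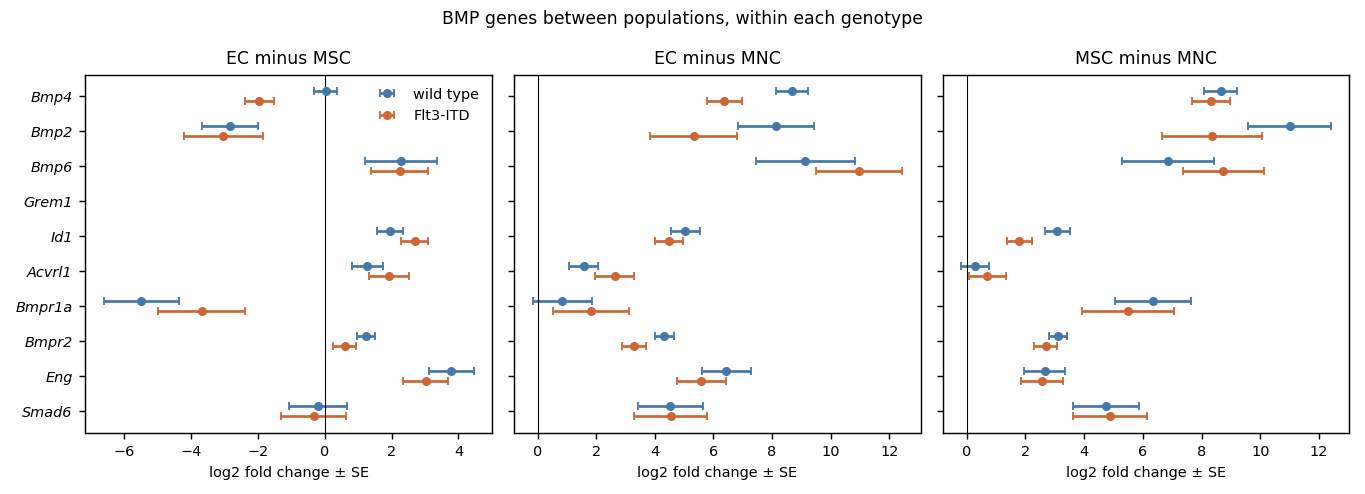
Log2 fold change (edgeR, bars ± SE) of each gene between ECs, MSCs and MNCs within wild-type (blue) and Flt3-ITD (orange) libraries. Eng and Id1 lie to the EC side and Bmpr1a and Bmp2 to the MSC side in both genotypes, and Bmp4 lies at 0.03 in wild type and -1.95 in Flt3-ITD libraries.

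Of the 55 other pathway genes, 30 were fitted in ECs, 41 in MSCs and 24 in MNCs for the genotype comparison, and none was called in any of them by edgeR's quasi-likelihood test. The median log2 fold change of those fitted was -0.08 for ECs, -0.05 for MSCs and 0.06 for MNCs, beside -0.01, 0.03 and -0.01 over all genes tested. Smad4, the partner shared by all receptor Smads, did not overlap between genotypes in MSCs, and Nbl1 in ECs was the only other such gene of the list. Over all genes tested, 0.56% lay wholly lower and 0.354% wholly higher in Flt3-ITD MSCs. In Flt3-ITD ECs the shares were 0.542% and 0.599%, in a fit that Nbl1 did not enter. Smad4 was 21.7, 33.4, 31.3, 31.3 and 28.6 RPKM in wild-type MSCs and 10.7, 7.16, 5.21, 12.4 and 11.9 in Flt3-ITD MSCs. The log2 fold change was -1.57 (SE 0.29, unadjusted p = 0.00018, adjusted p = 0.322) and missed the threshold, whereas DESeq2 gave an adjusted p of 3.3e-05 and edgeR's exact test one of 0.0063. In MNCs Smad4 differed by -0.68 (SE 0.25, adjusted p = 0.419). In ECs it differed by 0.11 (SE 0.55, adjusted p = 1).

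Smad9, a receptor Smad of low level, had a mean of 1.57 ± 1.09 RPKM (SD, n = 5) in wild-type and 0.282 ± 0.128 in Flt3-ITD MSCs, and 4 of 5 Flt3-ITD libraries lay below all wild-type libraries. Its log2 fold change was -2.44 (SE 0.74, unadjusted p = 0.00705, edgeR adjusted p = 0.999), and DESeq2 gave an adjusted p of 0.021. It is named after its values were seen. Smad1, which carries the BMP signal to the nucleus, was 2.42 to 60.5 RPKM in wild-type and 19.0 to 50.2 in Flt3-ITD ECs, and 3.72 to 9.67 and 1.73 to 16.6 in MSCs. It was higher in ECs than in MSCs in wild type (2.14 on the log2 scale, SE 0.61, adjusted p = 0.0236) and in Flt3-ITD libraries (1.80, SE 0.48, adjusted p = 0.0191). Smurf2, a ubiquitin ligase that removes Smads and receptors, was 8.79 to 17.0 RPKM in wild-type ECs and 13.8 to 21.7 in wild-type MSCs, a difference of -0.49 (SE 0.27, adjusted p = 0.227).

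Of 17 extracellular antagonists, 14 were fitted between ECs and MSCs. Beside 12.7% of all genes called higher in wild-type and 12% in Flt3-ITD MSCs, 10 of the 14 were higher in MSCs in each genotype, the same 10 genes, among them Nog, Chrd, Fst, Fstl1, Twsg1 and Nbl1. Crim1, a membrane protein that binds BMPs, was higher in ECs in each genotype. Fstl1, a secreted follistatin-like protein, was 1236 to 1769 RPKM in wild-type and 839 to 2089 in Flt3-ITD MSCs, against 91.8 to 204 and 139 to 212 in ECs. Twsg1, which binds BMPs together with chordin, was 35.8 to 59.3 RPKM in wild-type and 16.6 to 63.5 in Flt3-ITD MSCs, against 0.38 to 9.08 and 0.72 to 13.0 in ECs.

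Nbl1 (DAN) was 103 to 215 RPKM in wild-type and 86.2 to 164 in Flt3-ITD MSCs. In ECs it was 0.12 to 1.55 RPKM in wild type and 0 to 0.11 in Flt3-ITD libraries, too low for the EC fit. In the model of all 6 groups its genotype effect in ECs minus that in MSCs was -4.29 on the log2 scale (SE 1.17, adjusted p = 0.126), and that in ECs minus MNCs was -8.41 (SE 1.63, adjusted p = 0.108). Neither passed.

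Among the ligands and receptors outside the members, Bmp5 was 4.14 to 33.7 RPKM in wild-type and 1.07 to 46.2 in Flt3-ITD MSCs. Bmp8b and Gdf3 were below 6 RPKM in every library. Rgmb, a co-receptor, Acvr1 (ALK2) and Acvr2a, a type II receptor, were called higher in ECs and in MSCs than in MNCs in each genotype. None of these 3 was called between ECs and MSCs.

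The targets did not share one order across populations. Id3 was 1497 to 2584 RPKM in wild-type ECs and 1098 to 1405 in wild-type MSCs, a difference of 0.54 (SE 0.36, adjusted p = 0.331), and 3.82 to 37.7 in wild-type MNCs. Id2 had a log2 fold change of ECs over MSCs in wild type of -1.07 (SE 0.26, adjusted p = 0.0103), short of the fold rule on RPKM. Tmem100, an endothelial gene that BMP9 and BMP10 are known to induce, was 254 to 579 RPKM in wild-type MSCs and 0.02 to 35.5 in wild-type ECs (-4.78, SE 1.07, adjusted p = 0.00597). Genotype differences of Id2 and Id3 in ECs were 0.00 (SE 0.34) and 0.18 (SE 0.20), both at adjusted p = 1 in edgeR.

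Over the whole list of 55, 42 were fitted between populations. In wild type 3 were higher in ECs than in MSCs, where 11.7% of all genes were called, and 15 higher in MSCs, where 12.7% were called. In Flt3-ITD libraries the counts were 3 and 16, beside 11% and 12% of all genes. Against MNCs, 22 were higher in wild-type and 19 in Flt3-ITD ECs, beside 20.2% and 17.9%. In MSCs 33 and 29 were higher than in MNCs, beside 19.7% and 16.5%. None was higher in MNCs. Within MNCs only 24 of the list held enough reads to be fitted for genotype. The others fitted here entered through the EC or MSC libraries and could hardly be called higher in MNCs. The counts against MNCs are therefore a description.

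**Figure D5:**
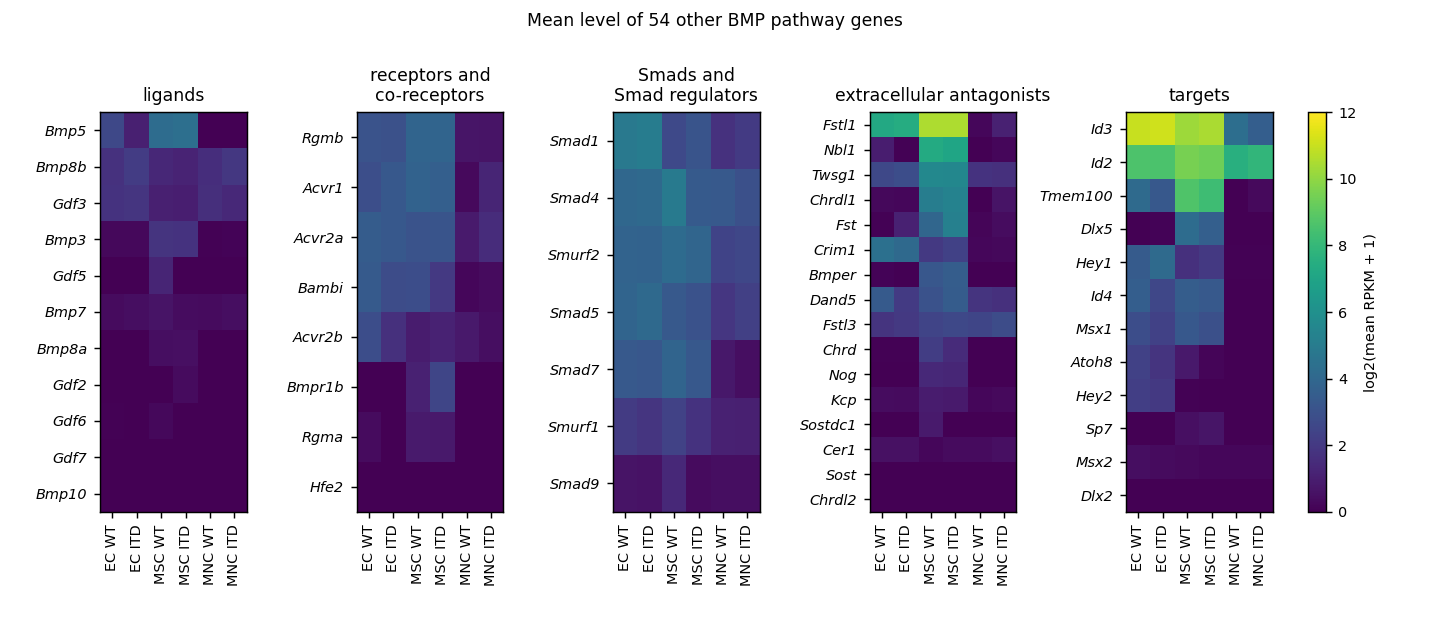
Mean RPKM of 54 of the 55 other pathway genes in the 6 groups as log2(mean RPKM + 1), by role, with genes ordered by their highest group mean. The antagonists Fstl1, Nbl1 and Twsg1 are brightest in the MSC columns, and Id3 and Id2 lead the targets.

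Likeness to Bmp4 was measured as Pearson's r of log2(RPKM + 1) over the 28 libraries, among 13727 genes whose RPKM averaged 1 or more. The values describe libraries that share populations. The ranking used the EC libraries of both genotypes, whose Bmp4 values chose the list. A lower level in Flt3-ITD ECs among the genes closest to Bmp4 was therefore partly selected for. The 5 closest genes were Serpinh1 (r = 0.97), Npdc1 (0.959), Fbln2 (0.953), Ghr (0.952) and Sparc (0.947). Serpinh1, a collagen chaperone, had group means of 46.2 RPKM in wild-type ECs, 26.1 in Flt3-ITD ECs, 46.9 in wild-type MSCs and 60.1 in Flt3-ITD MSCs. Npdc1 had 43.4, 21.3, 61.5 and 48.3 RPKM in the same order. For Id1 the 5 closest were Plk2 (r = 0.964), Myo10 (0.95), Sptbn1, Mettl23 and Cd200 (0.948 each). Plk2, a polo-like kinase, had group means of 245 RPKM in wild-type and 323 in Flt3-ITD ECs, 21.0 and 18.6 in MSCs and 1.93 and 2.40 in MNCs.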

How the data were processed

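Libraries were prepared by the study with the SMARTer Ultra Low RNA kit and Nextera XT and sequenced as single-end reads. Bowtie and RSEM are named in the submitters' processing notes, their versions not given in the sources used here. The authors deposited counts, whole-number reads per gene from RSEM on mm10 transcripts with non-unique alignments removed, without normalization. The authors deposited RPKM for the same genes and libraries to 2 decimals. Amplification from 100 to 200 cells without molecular identifiers means that read counts are not counts of molecules, so a low value can be a transcript lost before amplification. All 56 value columns were matched to a library, and 0 columns were left unmatched. Groups and replicate numbers came from the labels. The labels give the MNCs the tissue name of bone-lining cells.

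Counts were fitted with edgeR 4.0.16 (R 4.3.3) by the quasi-likelihood test with TMM scaling and filterByExpr, per population for genotype, per genotype for population, and in 1 model of 6 groups for differences of effects. A gene was called at a Benjamini-Hochberg adjusted p below 0.1 over all genes tested with mean RPKM differing by a log2 ratio no smaller than 1 in either direction. For a difference of effects, the fitted log2 value replaced the ratio. For a single gene, libraries were permuted exactly between genotypes, two-sided (scipy 1.17.1). The procedure was tested on simulated counts. Gene positions are those of GENCODE for GRCm38.

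The members and the lists of pathway and marker genes were chosen with earlier results of these data known. Named genes were the 10 members, for each role of the list the 3 genes with the highest mean RPKM in any population plus any called for genotype or in a difference of effects, and the 5 genes closest to Bmp4 and to Id1. Genes behind a count of calls, such as the antagonists higher in MSCs, Crim1, Bmper and Smad9, are named outside this rule, after their values were seen. Of the 55 other pathway genes 1 is counted but not reported here by name. Alternatives were DESeq2 1.42.0, its size factors, no filter on low counts, the adjusted p alone, edgeR's exact test, 1 model of 6 groups, a replicate block, and each library left out in turn. Whether libraries with the same replicate number deviate together was checked. Each library is 1 mouse per the study, and p-values measure the spread between mice within these sorts. Populations may share mice, and the main fits between populations took their libraries as independent.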

Additional observations from a re-analysis of the deposited data

Results flagged for a closer look

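For each of the 10 genes and each group with a library of at least 1 RPKM, 46 sets in all, the highest and lowest library were compared with the rest by Dixon's gap. For normally distributed values chance flags about 5% of such groups, and 6 were flagged. RPKM values need not follow that distribution, so the rate is only a guide here. Bmpr1a stood apart 3 times. It was 2.79 RPKM (213 reads) in replicate 1 of the wild-type ECs, where the others had 0.01 to 0.76, and 8.81 RPKM (874 reads) in replicate 5 of the Flt3-ITD ECs, where the others had 0.01 to 1.52. In replicate 2 of the Flt3-ITD MNCs it was 1.42 RPKM (154 reads), where the others had 0.09 to 0.14. Acvrl1 was low at 6.03 RPKM (303 reads) in replicate 1 of the wild-type ECs, where the others had 16.8 to 20.1. That library also had the highest sum of erythroid genes among ECs, 97.9 RPKM against at most 1.42, and the lowest endothelial sum, 1467 RPKM. The part of these in the 2 values of that library was not tested. Smad6 was 7.2 RPKM (630 reads) in replicate 1 of the Flt3-ITD MSCs, where the others had 0.32 to 2.25. Grem1 was 14.7 RPKM (524 reads) in replicate 4 of the wild-type MSCs, where the others had 0 to 3.49.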

How the results depend on the processing

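Over all genes, the genotype comparisons depended on the tool. In ECs 1 gene was called by the quasi-likelihood test, 354 by DESeq2, 275 in the model of 6 groups, 16 by edgeR's exact test and 0 without the filter. In MSCs it was 4 against 197, 18, 19 and 2, and in MNCs 2 against 327, 6, 146 and 3. No member was called for genotype in MSCs or MNCs under any of these. Of the other pathway genes, DESeq2 called 1 in ECs (Nbl1) and 2 in MSCs (Smad4 and Smad9), the exact test 1 in MSCs (Smad4), and the model of 6 groups 2 in ECs (Bmper and Nbl1) and 1 in MSCs (Smad9), against 0 in each. The cause was not tested.

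Between genotypes, the correlation of deviations of libraries with the same replicate number was 0.035 to 0.095 in MSCs. It was -0.018 to 0.047 in ECs and -0.083 to 0.048 in MNCs. In MSCs its mean was 0.058, against -0.014 for libraries of different number. The best match had the same number for 4 of 5 wild-type MSC libraries, 3 of 5 in ECs and 1 of 4 in MNCs. Libraries of the same number thus deviated together weakly in MSCs. Within a genotype, the correlation between ECs and MSCs of the same number was -0.025 to 0.028 in wild type and -0.03 to -0.00049 in Flt3-ITD libraries. With the replicate block, 0 genes were called for genotype in each population, the log2 value of Bmp4 in ECs was -1.97, and Acvrl1 in MSCs changed sign to 0.064. Between Flt3-ITD ECs and MSCs the block ended the calls of Acvrl1 (adjusted p = 0.147) and Bmp6 (adjusted p = 0.233).

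Bmp4 between wild-type ECs and MSCs changed sign to -0.0404 with DESeq2 and to -0.035 with its size factors. The log2 ratio of Bmp4 for genotype in ECs was -2.09 to -1.60 when 1 library was left out and -1.87 as a difference of mean log2(RPKM + 1). That of Bmpr1a in ECs ran from -0.72 without replicate 5 of the Flt3-ITD ECs to 2.74 without replicate 1 of the wild-type ECs. Between Flt3-ITD ECs and MSCs, Acvrl1, Eng and Id1 kept their calls in every fit that left out 1 library. Bmp2, Bmp6 and Bmpr1a lost theirs in some of these fits. The other pathway genes called there were 12 to 19, the 12 without replicate 1 of the Flt3-ITD MSCs.

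Some small log2 differences changed sign when 1 library was left out, and none of them was called. For genotype in MSCs, Bmp4 ran from -0.0623 to 0.37, Bmp6 from -0.76 to 0.61, Acvrl1 from -0.33 to 0.32 and Eng from -0.11 to 0.65. For genotype in MNCs, Bmpr1a ran from -1.87 to 0.27. Between ECs and MSCs, Bmp4 ran from -0.19 to 0.28 and Smad6 from -0.46 to 0.30 in wild type, and Smad6 from -0.93 to 0.74 in Flt3-ITD libraries. Between ECs and MNCs, Bmpr1a ran from -0.49 to 1.24 in wild type and from -0.069 to 3.56 in Flt3-ITD libraries, and between wild-type MSCs and MNCs Acvrl1 ran from -0.13 to 0.51. Members at a few reads in MNCs cannot be resolved at this depth.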
